A study of Mus musculus with 5 samples.

Results

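Matrix metalloproteases (MMPs), the related ADAMTS proteases and the tissue inhibitors of metalloproteases (TIMPs) were described in mouse lungs that have or lack Cldn4, with and without injurious ventilation. The set was chosen by gene symbol (Mmp, Timp or Adamts followed by a digit, Adamts-like genes left out) and by abundance, a mean abundance (logCPM, the log2 of CPM, which are counts scaled to library size) of at least 0 in all 4 of the authors' comparison tables. This took 33 of 46 matching symbols, among 21590 genes in all: 15 MMP, 14 ADAMTS and 4 TIMP genes. At the abundance limit, Mmp16 stood just inside with a lowest logCPM of 0.18 and Adamts13 just outside with -0.16 in the authors' deposited tables.

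RNA was taken from whole lungs of mice on a mixed background of 129S6, C57BL/6 and BALB/c in 5 groups. They were unventilated wild type (WT_noVILI), unventilated Cldn4 knockout (KO_noVILI), wild type after 2 h of ventilator-induced lung injury at 40 cmH2O (WT_VILI), and knockouts after the same ventilation whose injury was similar to wild type (KO_VILIlow) or higher than wild type (KO_VILIhigh). The series text states duplicates for each group, and the labels hold 1 record per group. Both ventilated knockout groups were formed by the injury of the animals, so a comparison with either describes lungs already sorted by outcome. Cldn4 encodes claudin-4, a sealing protein of epithelial tight junctions. The labels used here do not state how the knockout allele was made or which cells lack it.

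MMPs are zinc-dependent endopeptidases that are made as inactive precursors and cut collagens, gelatin, elastin, proteoglycans and many signalling proteins. ADAMTS proteases are secreted relatives with thrombospondin repeats, and different members cut the proteoglycans versican and aggrecan or remove the propeptides of fibrillar procollagens. TIMPs bind the active site of MMPs and block them, and TIMP-3 also inhibits several ADAM and ADAMTS enzymes. In the lung these systems shape the alveolar matrix, and neutrophils carry MMP-8 and MMP-9 in their granules.

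The tables hold no values per library, so depth, replicate spread and the value of a single mouse are unknown, and whether the duplicates were separate animals is not stated. What is given below is the authors' log2 fold change and edgeR false discovery rate (FDR) for each comparison, a gene being called at a deposited FDR of 0.05 or less. Group levels in CPM were rebuilt from the fold change and logCPM; they are not per length and are compared only between groups within a gene. WT_VILI levels of the members rebuilt from the 2 ventilated knockout tables differed from those of the wild type table by a median of 0.14 and 0.093 log2, and by at most 0.25 and 0.22 log2, for Timp1. The targeted gene matched the labels: the level of Cldn4 was 9.38 CPM in WT_noVILI and 140 in WT_VILI, against 0.14, 0.021 and 0.122 CPM in KO_noVILI, KO_VILIlow and KO_VILIhigh. Markers of lung cells were present in every group, the alveolar type 2 list at a summed 25197 to 30024 CPM, the alveolar type 1 list at 4876 to 5980 CPM and the endothelial list at 4321 to 5423 CPM. Xist, expressed from the inactive X of females, stood at 891 and 505 CPM in WT_noVILI and KO_noVILI but at 6.13, 4.08 and 2.56 CPM in WT_VILI, KO_VILIlow and KO_VILIhigh, and the Y-linked gene Ddx3y ran the other way, at most 0.421 CPM without and at least 90.7 CPM with ventilation. Sex and ventilation can therefore not be told apart for any gene in comparisons of ventilated with unventilated lungs. In whole lung, a change in the number of cells of a type and a change in RNA per cell cannot be told apart either.

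Ventilation of wild type lungs was the comparison with the most change among these genes. Neutrophil collagenase Mmp8, the gelatinase Mmp9, several proteoglycan-cutting ADAMTS genes and the inhibitors Timp1 and Timp3 rose, while Mmp11, Adamts5 and Adamts10 fell. Of the 33 members, 16 were called in the authors' deposited table, with 13 up and 3 down. That table called 9.09 percent of all genes, and 13.1 percent of the 14285 genes that met the same abundance minimum (6.94 percent higher and 6.2 percent lower). Their median log2 fold change was 0.48, against -0.02 over those 14285 genes. By family, 5 of 15 MMP genes, 9 of 14 ADAMTS genes and 2 of 4 TIMP genes were called. Without Timp1, the only X-linked member, 15 of 32 were called.

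**Figure D1:**
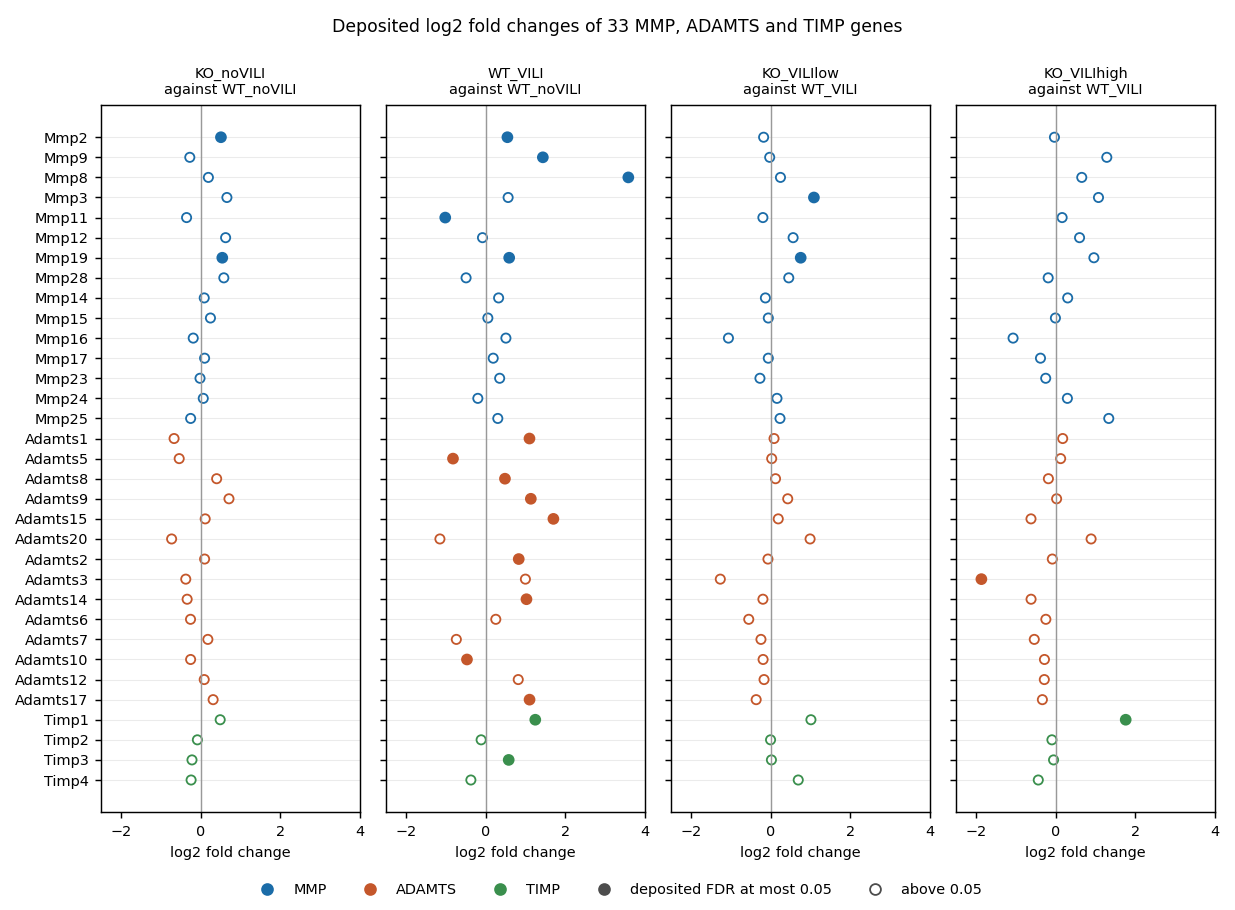
Log2 fold changes from the authors' deposited tables (x axis) of the 33 members (y axis), 1 panel per comparison; filled points have a deposited FDR of 0.05 or less and open points do not. The panel for ventilated wild type lungs holds 16 filled points, and each of the other panels holds 2.

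Mmp8, a collagenase stored in neutrophil granules, stood at 2.72 CPM in WT_noVILI, 3.11 in KO_noVILI, 32.8 in WT_VILI, 36.6 in KO_VILIlow and 48.4 in KO_VILIhigh. All 3 ventilated groups lay above both unventilated groups. Its log2 fold change in ventilated wild type lungs was 3.59 in the authors' deposited table (edgeR FDR = 2.45e-12), the highest of the 33 members in that comparison. Mmp9, the gelatinase of neutrophils and macrophages, stood at 14.6, 12.1, 39.7, 37.1 and 91.7 CPM in the same order of groups. It rose by 1.44 in ventilated wild type lungs in the authors' deposited table (edgeR FDR = 0.00754), and the level in KO_VILIhigh was the highest of the 5 groups. In ventilated wild type lungs, 11 of 16 listed neutrophil markers rose and none fell, by the authors' deposited table. They were led by Ngp (4.14), Il1r2 (5.89) and Trem1 (2.74). In KO_noVILI against WT_noVILI and in KO_VILIlow against WT_VILI, 1 of the 16 was called higher, Ngp at 2.93 and 0.84. Mmp8 was at 0.19 and 0.24 in these comparisons and Mmp9 at -0.28 and -0.03, and neither was called there (the authors' deposited tables, edgeR). The median log2 fold change over the neutrophil markers was 0.51 and 0.43 in the same comparisons. The summed level of that list was 230, 266, 729, 956 and 1246 CPM in the order above, with Elane, the elastase of neutrophil precursors, under 0.5 CPM in every group. The part of neutrophil number in the Mmp8 and Mmp9 values was not tested.

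The other gelatinase, Mmp2, is made mainly by mesenchymal cells and stood at 114 CPM in WT_noVILI, 162 in KO_noVILI, 170 in WT_VILI, 152 in KO_VILIlow and 167 in KO_VILIhigh. WT_noVILI was the only group below 150 CPM. Its rise in ventilated wild type lungs was 0.54 in the authors' deposited table (edgeR FDR = 0.00113). Mmp14, the membrane-bound enzyme that activates the MMP-2 precursor, was at 0.32 there with an FDR of 0.225 (the authors' deposited table, edgeR). None of the 7 membrane-bound members (Mmp14, Mmp15, Mmp16, Mmp17, Mmp23, Mmp24 and Mmp25) was called in any of the 4 deposited edgeR tables. Of the 14285 genes above the abundance minimum, 13.1 percent were called in ventilated wild type and 4.84 percent in KO_noVILI. Against WT_VILI the share was 1.37 percent in KO_VILIlow and 2.22 percent in KO_VILIhigh. With 7 genes, none called is near these shares. Mmp19, a secreted enzyme found in several cell types of the lung, rose by 0.59 in the authors' deposited table for ventilated wild type (edgeR FDR = 0.00347). Mmp11, stromelysin-3, which is activated inside the cell, went the other way: its level was 46.4 CPM in WT_noVILI, 36.3 in KO_noVILI, 23.1 in WT_VILI, 18.7 in KO_VILIlow and 24.2 in KO_VILIhigh, so the 3 ventilated groups were lowest. The authors' deposited table for wild type gave it a log2 fold change of -1.02 (edgeR FDR = 5.13e-06).

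Of the 6 proteoglycan-cutting ADAMTS members, 4 rose and 1 fell in ventilated wild type lungs in the authors' deposited table. Of the 14285 genes above the abundance minimum, 6.94 percent were called higher and 6.2 percent lower there. Adamts15 had levels of 38.0 CPM in WT_noVILI and 41.1 in KO_noVILI, against 124 in WT_VILI, 141 in KO_VILIlow and 79.9 in KO_VILIhigh. The deposited table of the authors gave it a log2 fold change of 1.70 with the lowest FDR of all members in any comparison (edgeR FDR = 5.71e-28). Adamts1, a versican- and aggrecan-cutting enzyme, stood at 242, 152, 527, 581 and 623 CPM in WT_noVILI, KO_noVILI, WT_VILI, KO_VILIlow and KO_VILIhigh, and rose by 1.1 in wild type in the authors' deposited table (edgeR FDR = 5.12e-09). Adamts9, another versicanase, stood at 40.2, 65.7, 88.8, 118 and 88.8 CPM and rose by 1.13 in the authors' deposited table (edgeR FDR = 5.49e-10). Adamts8 rose by 0.48 in the authors' deposited table (edgeR FDR = 0.0405). Adamts5, the main aggrecanase of cartilage, moved opposite to the 4 that rose: its level was 29.3 CPM in WT_noVILI and 20.1 in KO_noVILI, against 16.7, 15.7 and 16.8 CPM in the 3 ventilated groups, with a log2 fold change of -0.82 in the authors' deposited table (edgeR FDR = 0.000393). Adamts20 was at -1.15 with an FDR of 0.239 in the authors' deposited table (edgeR). Its level was low, at 3.86 or 4.11 CPM in WT_noVILI, depending on the comparison it was rebuilt from, and 1.85 CPM in WT_VILI.

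Among the 3 procollagen N-propeptidases, which trim fibrillar procollagens so that fibrils can form, Adamts2 rose by 0.83 (edgeR FDR = 3.73e-06) and Adamts14 by 1.02 (edgeR FDR = 0.0153) in the authors' deposited table for ventilated wild type. Adamts3 was at 1.00 there without passing (edgeR FDR = 0.124, the authors' deposited table). Of the remaining ADAMTS members, Adamts17 rose by 1.1 and Adamts10, which associates with fibrillin microfibrils, had a log2 fold change of -0.47 in the authors' deposited table (edgeR FDR = 0.0131 and 0.0361). Fibroblast markers moved beside these genes, with 5 of 12 called up (Col3a1 at 0.88, Col1a1 at 0.66) and 1 down (Tcf21 at -2.16) by the authors' deposited table, and a summed level of 2272 CPM in WT_noVILI and 2818 CPM in WT_VILI; their part in these results was not tested.

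The inhibitors split by member. Timp1, the TIMP induced in injury, stood at 2.10 CPM in WT_noVILI, 2.95 in KO_noVILI, 5.29 in WT_VILI, 8.97 in KO_VILIlow and 15.4 in KO_VILIhigh. Every ventilated group lay above both unventilated groups, and both ventilated knockout groups lay above ventilated wild type. Timp1, which is X-linked, rose by 1.25 in ventilated wild type lungs in the authors' deposited table (edgeR FDR = 0.021). Timp3, the matrix-bound TIMP, stood at 1997, 1714, 2999, 3346 and 3153 CPM in the same order of groups and rose by 0.58 in the authors' deposited table (edgeR FDR = 0.000197). The Timp3 gene lies inside Syn3, a synapsin gene, which was listed at 1059, 869, 1550, 1726 and 1548 CPM and at a log2 fold change of 0.54 in the authors' deposited table (edgeR FDR = 0.00385). Whether reads were counted by strand is not given in the sources used here, so reads of these overlapping genes cannot be told apart and the Timp3 value is uncertain by that much. Timp1 lies inside Syn1 in the same way. Syn1 was at 1.79, 1.66, 1.44, 1.43 and 2.00 CPM in the same order of groups. In the unventilated groups this is not small beside Timp1 at 2.10 and 2.95 CPM, so the Timp1 value is uncertain too. Timp2 stood between 855 and 950 CPM in all 5 groups, at -0.12 in the authors' deposited table for ventilated wild type (edgeR FDR = 0.877). Timp4 was at 1.40 to 2.61 CPM and was not called in any deposited table (edgeR). It lies inside Syn2, which was higher, at 6.34 to 16.5 CPM, so the same limit holds.

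The 17 members that were not called in ventilated wild type lungs ranged from -1.15 to 1.00 (log2) in the table the authors deposited. They include Mmp3 at 0.56 (edgeR FDR = 0.318), Mmp25 at 0.30 (edgeR FDR = 1) and Mmp16 at 0.51 (edgeR FDR = 0.95), the last from 1.20 CPM in WT_noVILI to 1.93 in WT_VILI.

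**Figure D2:**
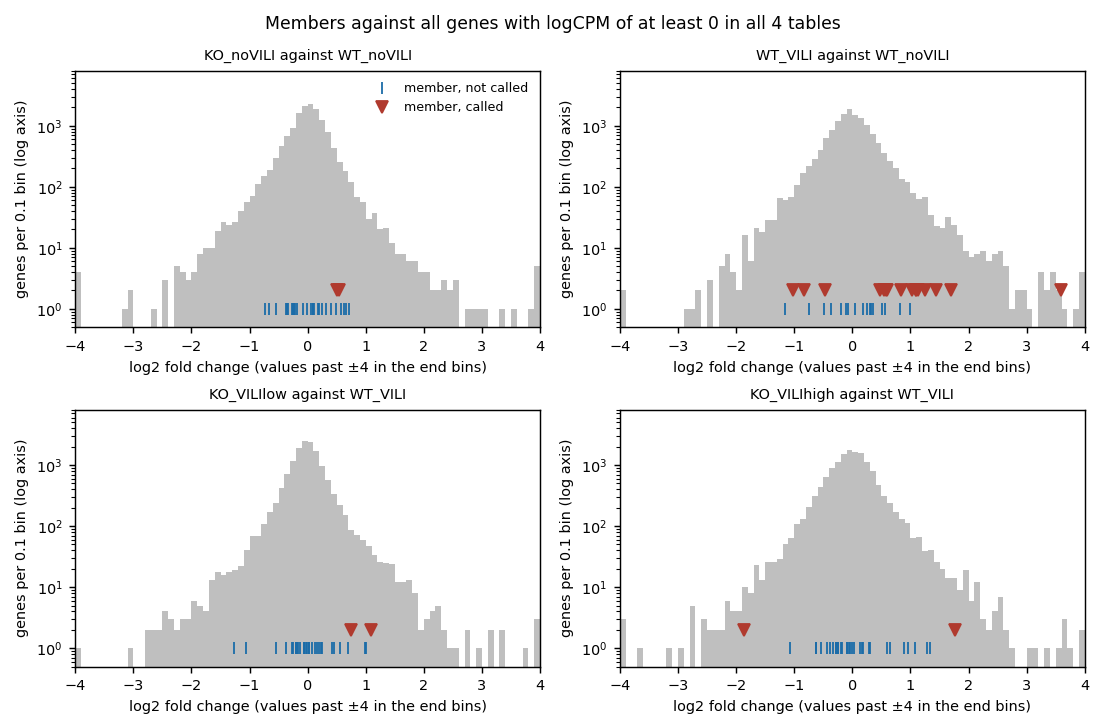
Number of genes per 0.1 bin of log2 fold change (y axis, log scale) among the 14285 genes with a logCPM of at least 0 in all 4 deposited tables, with the members marked near the base at a height without meaning (triangles called, ticks not called). In ventilated wild type lungs the called members lie between -1.02 and 3.59, 13 of them to the right of 0; in the other 3 panels most members lie near the centre.

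Without ventilation, knockout lungs differed from wild type in 2 members. Mmp2 and Mmp19 were higher, and no member was lower, in the authors' deposited table, where 3.36 percent of all genes and 4.84 percent of the 14285 genes above the minimum were called (2.01 percent higher and 2.83 percent lower). Mmp2 was at 0.51 (edgeR FDR = 0.0416) and Mmp19 at 0.54 (edgeR FDR = 0.0417) in the authors' deposited table. Both lie close to the threshold. Adamts1 at -0.67 (edgeR FDR = 0.0509) and Adamts9 at 0.71 (edgeR FDR = 0.0517) lay just past it in the authors' deposited table, in opposite directions. The median over the 33 members was 0.09 on the log2 scale, against 0.01 over the 14285 genes. At 2 of 33 the count is near the background share.

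Ventilated knockouts of the lower injury group were higher in Mmp3 and Mmp19, with no member lower, in the authors' deposited table, which called 0.973 percent of all genes and 1.37 percent of the 14285 (0.938 percent higher and 0.434 percent lower). Mmp3, stromelysin-1, which cuts proteoglycans and activates other MMP precursors, stood at 7.39 CPM in WT_noVILI, 11.6 in KO_noVILI, 11.0 in WT_VILI, 20.5 in KO_VILIlow and 20.9 in KO_VILIhigh. Both ventilated knockout groups lay above the other 3. Without ventilation Mmp3 was at 0.66 in KO_noVILI against WT_noVILI, without passing (edgeR FDR = 0.108, the authors' deposited table). Its log2 fold change against WT_VILI was 1.09 in KO_VILIlow (edgeR FDR = 0.023) and 1.08 in KO_VILIhigh (edgeR FDR = 0.0622) in the authors' deposited tables, which share the WT_VILI samples. Mmp19 stood at 31.0, 45.1, 47.1, 76.1 and 87.2 CPM in WT_noVILI, KO_noVILI, WT_VILI, KO_VILIlow and KO_VILIhigh. Against WT_VILI it was at 0.75 in KO_VILIlow (edgeR FDR = 0.0371) and 0.96 in KO_VILIhigh (edgeR FDR = 0.165) in the authors' deposited tables. Macrophages express Mmp19 and the macrophage elastase Mmp12, and of 13 measured alveolar macrophage markers 1 was higher in KO_VILIlow (Chi3l3 at 1.36) and 2 in KO_VILIhigh (Chi3l3 at 1.27 and Marco at 2.05) against WT_VILI in the authors' deposited tables. The median over these markers was 0.21 in KO_VILIlow and 0.17 in KO_VILIhigh. In KO_noVILI against WT_noVILI, where Mmp19 was also higher, 1 of the 13 was higher (Marco at 1.62) and none lower, by the authors' deposited table. In ventilated wild type lungs, where Mmp19 rose, 1 of the 13 fell (Chi3l3 at -1.20) and none rose, by the authors' deposited table. The summed level of these markers was 516, 588, 367, 535 and 520 CPM in the order above, and their part in the Mmp19 result was not tested. Mmp19 overlaps Tmem198b, which was listed at 24.8 to 45.3 CPM and called in no deposited table (edgeR). Mmp12 was called in no deposited table (edgeR), at 2.81 to 4.33 CPM.

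Knockouts with higher injury than wild type differed from WT_VILI in Timp1, which was higher, and Adamts3, which was lower, in the authors' deposited table, where 1.56 percent of all genes and 2.22 percent of the 14285 were called (1.57 percent higher and 0.651 percent lower). Timp1 was at 1.76 (edgeR FDR = 0.0176) in the authors' deposited table, and at 1.01 in KO_VILIlow (edgeR FDR = 0.102). Its WT_VILI level was 5.29 CPM from the wild type table and 4.45 and 4.54 CPM from the KO_VILIlow and KO_VILIhigh tables. Adamts3, which trims procollagen and activates the lymphatic growth factor VEGF-C, stood at 5.68 CPM in WT_noVILI, 4.37 in KO_noVILI, 11.4 in WT_VILI, 4.26 in KO_VILIlow and 2.89 in KO_VILIhigh. WT_VILI was the highest of the 5 groups, and the ventilated knockouts lay at or below the unventilated groups. Its log2 fold change was -1.87 in KO_VILIhigh (edgeR FDR = 0.0223) and -1.27 in KO_VILIlow (edgeR FDR = 0.254) in the authors' deposited tables. Mmp9 was at 1.28 (edgeR FDR = 0.125) and Mmp25, a leukocyte membrane MMP, at 1.33 (edgeR FDR = 0.235) in the authors' deposited table for KO_VILIhigh, beside 3 of 16 neutrophil markers called higher. Timp2 and Timp3 were at -0.10 and -0.05 there in the authors' deposited table, both with an edgeR FDR of 1. The medians over the 33 members against WT_VILI were -0.00 in KO_VILIlow and -0.05 in KO_VILIhigh, beside -0.01 and -0.01 over the 14285 genes.

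**Figure D3:**
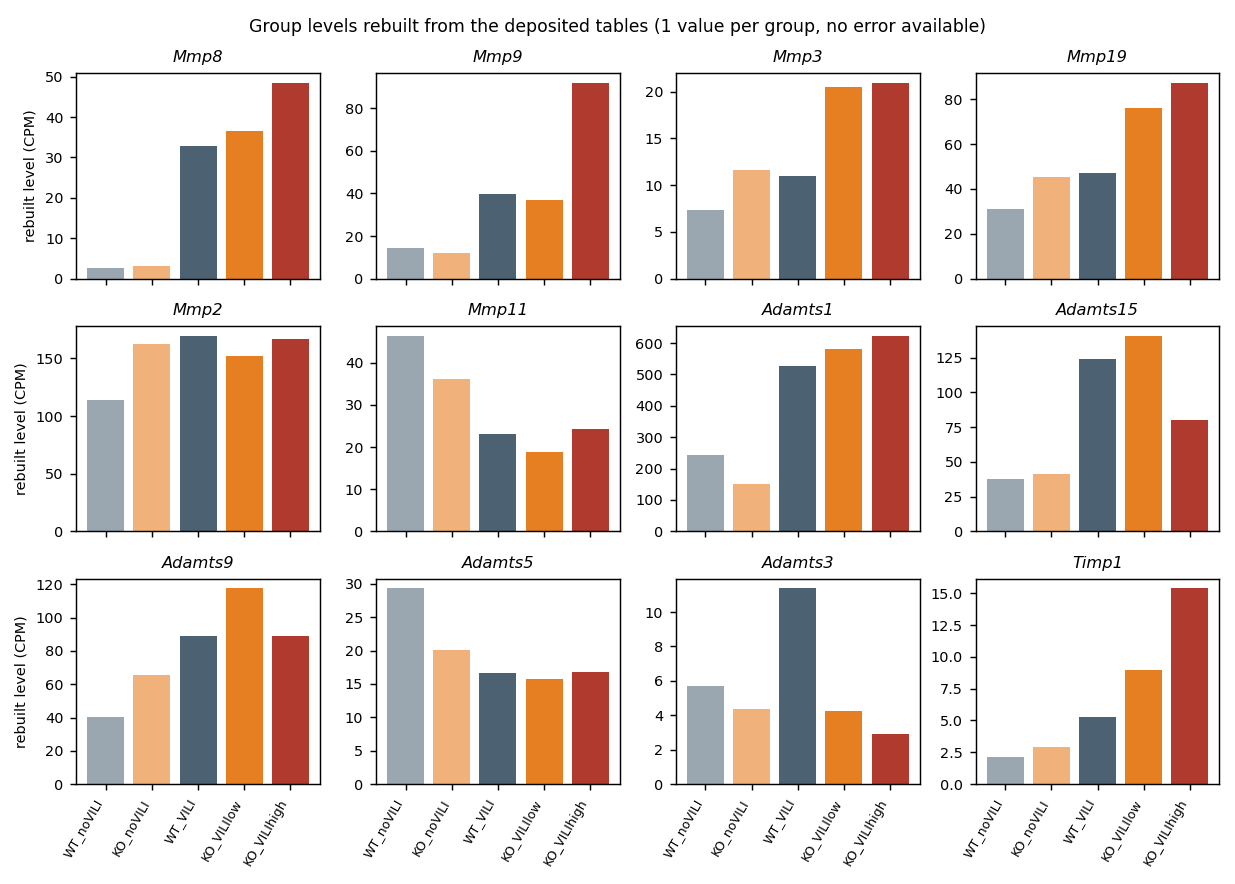
Levels of 12 members in the 5 groups in CPM (y axis, from 0), rebuilt from the authors' deposited tables; each bar is 1 group value and no error can be given. Mmp8 is at 2.72 and 3.11 CPM without ventilation and at 32.8 to 48.4 CPM with it, and Adamts3 is highest in ventilated wild type lungs at 11.4 CPM.

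The ventilation response within the knockout was obtained by adding and subtracting the authors' fold changes, with an approximate standard error taken from each deposited p-value. Adamts1, Mmp8 and Adamts15 rose in KO_VILIlow against KO_noVILI, and Mmp9 and Timp1 as well in KO_VILIhigh. In KO_VILIlow 3 of 31 members with enough reads to be tested were called, all higher, against 3.3 percent of 12989 genes (2.07 percent higher), and in KO_VILIhigh 5 of 31, all higher, against 3.68 percent of 13029 genes (2.32 percent higher). Mmp8 was at 3.64 ± 0.77 (approximate SE) in KO_VILIlow and 4.05 ± 0.90 in KO_VILIhigh (adjusted p = 0.000211 and 0.000446, normal test on edgeR values). Adamts1 was at 1.85 ± 0.33 and 1.95 ± 0.34 (adjusted p = 2.78e-06 and 1.69e-06, same test on edgeR values). Adamts15 was at 1.78 ± 0.41 and 0.97 ± 0.31 (adjusted p = 0.00102 and 0.048, same test on edgeR values). For Mmp9 the KO_VILIlow value of 1.69 did not pass (adjusted p = 0.218) and that of KO_VILIhigh was 3.00 ± 0.64 (adjusted p = 0.000197, same test on edgeR values). Timp1 was likewise at 1.77 (adjusted p = 0.139) and at 2.52 ± 0.74 (adjusted p = 0.0231, same test on edgeR values).

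These tests count the variance of the wild type groups, which cancel from the estimate. With that variance left out 13 of 31 members were called in each knockout group, 11 higher and 2 lower, against 14.2 and 16.2 percent of all genes tested. Of the 16 members called in ventilated wild type lungs, 15 had the same sign in KO_VILIlow, the exception being Mmp2 at -0.14, and 15 in KO_VILIhigh, the exception being Adamts8 at -0.10. The same share among all genes called in wild type was not counted, so this agreement is not shown to be particular to the members. Sex and ventilation cannot be told apart in the responses of either genotype. The Mmp2 level was 162 CPM in KO_noVILI and 170 CPM in WT_VILI, and its response in KO_VILIhigh was 0.0049 on the log2 scale.

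**Figure D4:**
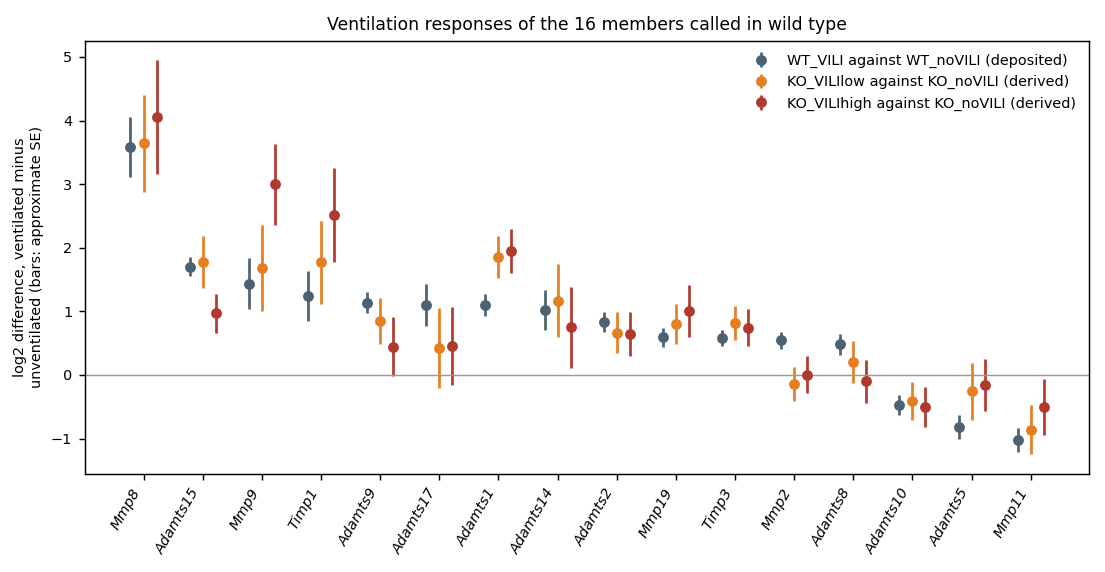
Log2 difference between ventilated and unventilated lungs (y axis) for the 16 members called in wild type (x axis), in wild type (the authors' deposited values) and in knockouts of lower and higher injury (derived here); bars are approximate standard errors. For Mmp9 and Timp1 the highest of the 3 points is that of the higher injury knockout (3.00 and 2.52), and for Adamts15 the same group has the lowest point (0.97).

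Whether the genotypes responded differently was tested on the difference itself, the genotype difference with ventilation minus that without. The differences for KO_VILIlow and KO_VILIhigh subtract the same unventilated comparison and share the WT_VILI samples, so they are not independent results. Sex also changed with ventilation by Xist and Ddx3y, so ventilation and sex cannot be told apart in these differences. No member passed in KO_VILIlow or KO_VILIhigh (normal test on edgeR values), where 1.12 percent of 13093 and 1.51 percent of 13145 genes were called. At an unadjusted p under 0.05 (same test) there were 3 and 9 of 31 members. The share of all genes at that looser cut was not counted, so these 2 counts cannot be set against a background. The lowest adjusted p was that of Mmp9 in KO_VILIhigh, with a difference of 1.56 (95% interval 0.60 to 2.52, adjusted p = 0.0778 from edgeR values). Adamts3 was at -1.49 there (95% interval -2.67 to -0.32, adjusted p = 0.296 from edgeR values) and Timp1 at 1.27 (95% interval 0.036 to 2.51, adjusted p = 0.538 from edgeR values). Differences larger in size than that of Mmp9 were those of Adamts20, at 1.72 in KO_VILIlow and 1.62 in KO_VILIhigh (adjusted p = 0.578 and 0.505 from edgeR values), and Mmp25, at 1.59 in KO_VILIhigh (adjusted p = 0.378 from edgeR values). Adamts1 was at 0.75 in KO_VILIlow and 0.85 in KO_VILIhigh, with unadjusted p = 0.00735 and 0.00469 and adjusted p = 0.339 and 0.163 (normal test on edgeR values). In KO_VILIhigh, Adamts15 was at -0.73 (95% interval -1.27 to -0.20, adjusted p = 0.205 from edgeR values). For Mmp2 the difference was -0.69 in KO_VILIlow and -0.54 in KO_VILIhigh (adjusted p = 0.215 and 0.477 from edgeR values). Mmp3 and Mmp19, the members called in KO_VILIlow against WT_VILI, had differences of 0.43 (95% interval -0.30 to 1.16) and 0.21 (95% interval -0.31 to 0.74) in KO_VILIlow. Between KO_VILIhigh and KO_VILIlow no member of 31 passed either, against 0.159 percent of 13222 genes. Mmp9 at 1.31 and Adamts15 at -0.81 were the 2 members at an unadjusted p under 0.05 there (same test), again without a counted share of all genes. A miss of the threshold does not show that the groups responded alike, since the intervals of Mmp9 and Timp1 reach 2.52 and 2.51 (log2).

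Of the 13 matching genes below the abundance minimum, Adamts4, an aggrecanase induced by cytokines, fell outside through its unventilated level. It stood at 0.714 CPM in both unventilated groups, 4.28 in WT_VILI, 13.5 in KO_VILIlow and 36.0 in KO_VILIhigh. It is named here after its values were seen. In the authors' deposited tables it was at 2.55 in ventilated wild type (edgeR FDR = 0.000482), 1.97 in KO_VILIlow against WT_VILI (edgeR FDR = 0.00145) and 3.37 in KO_VILIhigh against WT_VILI (edgeR FDR = 2.43e-05). The fold in ventilated wild type rests on a fitted value for a group under 1 CPM. The other 12 were called in no deposited table (edgeR), among them Mmp10, Mmp13, Mmp7 and Adamts16. The near-identical pair Mmp1a and Mmp1b had equal values in every table, but so did Mmp7 and Adamts16, all under 1 CPM in every group. Equal values at this low level therefore do not show whether reads of Mmp1a and Mmp1b were told apart.

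Lists of related genes were counted in the same comparisons. For scale, the share of all genes called in either direction was 9.09 percent in ventilated wild type and 3.36 percent in KO_noVILI. Against WT_VILI it was 0.973 percent in KO_VILIlow and 1.56 percent in KO_VILIhigh. Over the 14285 genes above the abundance minimum these shares were 13.1, 4.84, 1.37 and 2.22 percent in the same order. Called higher were 6.94, 2.01, 0.938 and 1.57 percent of the 14285. Of 16 measured genes that activate or restrain these enzymes, 5 rose in ventilated wild type lungs with no fall, by the authors' deposited table, led by Thbs1 (2.85), which encodes thrombospondin-1, the urokinase receptor Plaur (1.06) and tissue plasminogen activator, Plat (0.76). In KO_VILIhigh against WT_VILI 4 of the 16 were higher and none lower, with Plau, urokinase, at 2.54, Thbs1 at 1.39 and Plaur at 1.34 in the authors' deposited table. In KO_VILIlow 2 were higher, Plat at 1.15 and Plaur at 0.66, and in KO_noVILI against WT_noVILI 2 were higher, Plat at 0.66 and Plau at 1.1, in the authors' deposited tables. Matrix substrates rose in 11 of 23 cases and fell in none in ventilated wild type lungs in the authors' deposited table, with the basement membrane collagen Col4a1 at 1.07 and elastin, Eln, at 1.19. Col1a1, Col1a2, Col3a1, Dcn and Lum are also in the fibroblast list, so the counts of these lists are not separate. In KO_noVILI against WT_noVILI 2 of the 23 were higher, the proteoglycan Bcan at 1.33 and Spp1 at 0.64, and 1 was lower, the collagen-binding proteoglycan Dcn at -0.77, in the authors' deposited table. Against WT_VILI none of the 23 was called in KO_VILIlow, and 1, the matricellular protein Spp1 at 1.47, in KO_VILIhigh (the authors' deposited tables, edgeR). Among the 17 ADAM and astacin proteases 4 rose and 1 fell in ventilated wild type lungs in the authors' deposited table, with the procollagen C-proteinase Bmp1 at 0.78, the leukocyte protease Adam8 at 1.46 and Adam33 at -1.07. Adam28, a lymphocyte protease, was at -1.33 in KO_noVILI and -1.97 in KO_VILIlow in the authors' deposited tables, each against its wild type reference. The 6 ADAMTS-like genes, which lack the protease domain, rose in 2 cases, Adamtsl2 at 1.68 and Adamtsl3 at 0.56, in the authors' deposited table for ventilated wild type. Adamtsl2 was also higher in KO_noVILI, at 0.87 in the authors' deposited table.

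Position and promoter sequence were taken from RefSeq on GRCm38.p6; the authors aligned to mm9. Some members are next to each other: Adamts1 and Adamts5 on chromosome 16, and Adamts8 and Adamts15 on chromosome 9, with no protein-coding gene starting between either pair. In ventilated wild type lungs the first pair moved in opposite directions (1.1 and -0.82) and the second in the same direction (0.48 and 1.70) in the authors' deposited table. Mmp3, Mmp8 and Mmp12 lie in the MMP cluster of chromosome 9, with at most 4 protein-coding genes starting between them, and only Mmp8 of these 3 was called in ventilated wild type lungs (the authors' deposited table, edgeR). Promoter sequences were found for 22 of 33 members, with 24 entries. In the 250 bases before the start site, the median GC content was 63.2 percent over these 24 entries and 52.4 percent over all 32851 promoters. Searched on both strands, the AP-1 motif TGACTCA was present in 2 of 24 member promoters (8.33 percent, against 4.46 percent of all), the PEA3 motif AGGAAG in 9 (37.5 percent, against 29.5 percent of all), and the NF-kB form (GGG and TTTCC set apart by any 2 bases) in none (against 1.41 percent of all).

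The 250 bases before the start sites of 4 members are shown as examples of members called higher in at least 1 deposited table (edgeR), with ventilation for Adamts1, Mmp8 and Timp1 and in KO_VILIlow against WT_VILI for Mmp3. They were chosen with their values known and are not the members with the lowest FDR. They are written 5′ to 3′ on the strand of the gene, with matches to the AP-1 and PEA3 motifs in capitals.
Mmp3, chr9:7445572-7445821, plus strand: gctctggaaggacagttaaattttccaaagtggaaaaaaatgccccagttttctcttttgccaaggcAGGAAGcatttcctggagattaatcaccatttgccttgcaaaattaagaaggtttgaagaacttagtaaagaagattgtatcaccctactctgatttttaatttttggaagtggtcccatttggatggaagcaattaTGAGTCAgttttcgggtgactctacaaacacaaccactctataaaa
Mmp8, chr9:7558179-7558428, plus strand: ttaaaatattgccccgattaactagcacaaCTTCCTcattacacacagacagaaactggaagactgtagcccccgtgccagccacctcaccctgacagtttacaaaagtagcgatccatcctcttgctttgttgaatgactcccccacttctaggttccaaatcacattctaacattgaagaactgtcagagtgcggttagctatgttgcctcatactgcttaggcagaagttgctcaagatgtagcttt
Timp1, chrX:20869916-20870165, plus strand: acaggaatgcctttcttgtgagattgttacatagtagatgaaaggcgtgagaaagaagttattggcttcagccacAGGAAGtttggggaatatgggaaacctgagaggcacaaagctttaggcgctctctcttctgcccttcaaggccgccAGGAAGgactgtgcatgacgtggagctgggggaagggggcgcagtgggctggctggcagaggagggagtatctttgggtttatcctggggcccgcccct
Adamts1, chr16:85803114-85803363, minus strand: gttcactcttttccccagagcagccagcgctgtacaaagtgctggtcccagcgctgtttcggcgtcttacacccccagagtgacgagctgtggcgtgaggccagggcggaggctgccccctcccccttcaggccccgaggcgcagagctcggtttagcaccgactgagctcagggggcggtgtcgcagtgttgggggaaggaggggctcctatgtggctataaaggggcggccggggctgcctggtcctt
Counted back from the start site, the AP-1 match of Mmp3 begins at -46 (read as TGAGTCA on this strand) and its PEA3 match at -183. Mmp8 has a PEA3 match at -220 (read as CTTCCT), Timp1 has PEA3 matches at -175 and -99, and the Adamts1 window holds neither string. GC content of these windows was 37.6 percent for Mmp3, 44.8 percent for Mmp8, 54.4 percent for Timp1 and 65.6 percent for Adamts1. A match is a string of letters and was not tested for binding.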

How the data were processed

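Whole-lung RNA was sequenced in 5 groups. Bowtie 1.1.2, mm9, R 3.0.1 and edgeR are named as the authors' tools and build per the submitters' processing notes; the count method, strand setting and gene filter are not given in the sources used here. The 4 deposited tables over 21590 genes hold log2 fold changes, log2 mean CPM (logCPM), p-values and FDR from the authors' edgeR test, per the file headers, and 0 columns of values per library, so depth and replicate error are unknown and the p-values measure only the spread between libraries that may be technical. Reading the logs as base 2 and logCPM as the log2 of the mean CPM of both groups is an inference from the column names of the authors' edgeR output. The reference of both ventilated knockout tables was taken as WT_VILI: rebuilt reference levels over 10562 genes with logCPM of at least 3 lay a median of 0.0491 and 0.045 log2 from WT_VILI after centring, against 0.204 and 0.203 from WT_noVILI.

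Tables were joined by Entrez identifier and symbol. Derived contrasts sum deposited log2 fold changes; standard errors come from each fold change and the normal quantile matching its p, variances are summed, and p-values are Benjamini-Hochberg adjusted over genes with logCPM of at least 1. On simulated tables with 200 changed genes among 13305, these tests recovered 81 percent of changes of 2 log2 and 3.5 percent of changes of 1 log2 for KO_VILIlow against KO_noVILI. For KO_VILIhigh against KO_noVILI they recovered 82 and 0.5 percent, and for KO_VILIhigh against KO_VILIlow 90.5 and 29.5 percent. For the genotype difference with minus without ventilation they recovered 89.5 and 40 percent in KO_VILIlow and 88.5 and 37.5 percent in KO_VILIhigh. False calls numbered at most 12. Members and gene lists were chosen with earlier results of these data known. Members named with values were those called in a deposited table, every Timp, Mmp2, Mmp9, Mmp14, the 3 largest changes per deposited comparison, and others given in ranges or beside these. Of each pathway or marker list up to 3 called genes with the smallest p were named per comparison. Software was scipy 1.17.1, numpy 2.4.6, matplotlib 3.10.9 and pandas 2.3.3 under Python 3.11.15. Protein sequences were not used here, and 1 gene of a pathway list is not reported here and was left out of its counts.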

Additional observations from a re-analysis of the deposited data

How the results depend on the processing

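No paired analysis was possible because the tables hold no values per library and the labels give 1 record per group; for the same reason no library could be left out. The 16 members called in ventilated wild type lungs became 6 under Bonferroni adjustment (2.45 percent of all genes called) and 9 when a log2 change of at least 1 was also asked (3.19 percent), both stricter by construction. The 2 called in KO_noVILI became 0 at an FDR of 0.01, under Bonferroni or with a log2 change of at least 1, 1 after centring on the median with a size of at least 0.5, 4 with Benjamini-Hochberg adjustment over genes with a logCPM of at least 0, and 5 at an FDR of 0.1. The 2 called in KO_VILIlow against WT_VILI became 0 at 0.01 or under Bonferroni and 1 with a size of at least 1. The 2 called in KO_VILIhigh against WT_VILI became 0 at 0.01 or under Bonferroni, and 1 without X-linked Timp1, an alternative added after the data were seen. The 3 and 5 called in the knockout responses became 13 and 13 when the variance of cancelled groups was left out, and the 5 became 3 at an adjusted p of 0.01. For the genotype difference in KO_VILIhigh the count of 0 became 1 at an adjusted p of 0.1. These 18 values moved by over 1.5 times, and 56 others of the counts and median group levels did not. Of the single member calls under an alternative, 138 held, 42 lost their threshold and 0 changed direction. The causes were not tested where a rule was not simply stricter or looser. Depth per library is unknown, so the limit it sets on members near 1 CPM could not be given.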

Other observations

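Marker lists not described above moved as follows in the authors' deposited tables. Cardiac muscle markers were lower in 8 of 10 cases in KO_noVILI against WT_noVILI and higher in 9 of 10 in KO_VILIlow and 2 of 10 in KO_VILIhigh against WT_VILI, with summed levels of 752, 298, 494, 1219 and 833 CPM in WT_noVILI, KO_noVILI, WT_VILI, KO_VILIlow and KO_VILIhigh. Smooth muscle and pericyte markers were lower in 3 of 10 cases in KO_noVILI, and 2 rose and 2 fell in ventilated wild type; 1 was higher in each ventilated knockout group against WT_VILI. Mesothelial markers were lower in 1 of 6 cases in KO_noVILI, and 1 of 6 rose in ventilated wild type. Of 10 endothelial markers 2 fell in ventilated wild type, of 7 alveolar type 1 markers 1 rose and 1 fell, and of 9 alveolar type 2 markers 1 rose there and 1 was lower in KO_VILIhigh against WT_VILI. Of 7 monocyte markers 1 rose and 2 fell in ventilated wild type. Cartilage markers summed to 4.39 to 7.17 CPM, with Col9a1, Lect1, Matn1 and Matn3 under 0.5 CPM in every group. Airway ciliated markers were lower in 4 of 8 cases in KO_noVILI, fell in 4 of 8 in ventilated wild type and were lower in 1 of 8 in KO_VILIlow against WT_VILI. Of 6 club cell markers 2 were lower in KO_noVILI, 1 rose in ventilated wild type and 1 was higher in KO_VILIhigh against WT_VILI. The 5 measured red blood cell markers fell in 3 cases in ventilated wild type and were higher in 3 cases in KO_VILIhigh against WT_VILI. Their part in the values of the proteases and inhibitors was not tested.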
